A study of Homo sapiens with 9 samples.

Results

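HaCaT cells made to express wild-type FTO were compared with HaCaT cells made to express a mutant FTO whose demethylase activity is disrupted. HaCaT is an immortalized human keratinocyte line. The groups compared were FTO (3 libraries) and mut-FTO (3 libraries), that is 6 of the 9 libraries of the series. They were chosen by their labels and fitted alone, so that the remaining 3 libraries, from cells with an empty vector (Vector), did not enter the estimate of the spread. Both groups carried an expression construct and differed, by their labels, in the activity of the enzyme it encodes. The labels used here give neither the changed residue nor the promoter of the constructs, the time after their introduction, or whether a group was a clone or a pool. They also do not call the replicates separate cultures. The p-values therefore reflect only how these samples vary, and part or all of that variation may be technical.

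FTO is a dioxygenase that removes the methyl group of N6-methyladenosine (m6A), the most common internal modification of messenger RNA, and of related modified bases. Methyltransferases place m6A mostly in the sequence GGAC and its variants, and reader proteins that bind it change how long a transcript lasts, how it is spliced and how well it is translated. In the epidermis, basal keratinocytes divide on the basement membrane, then leave it and turn on suprabasal keratins and cornified envelope proteins as they differentiate. Stimulated keratinocytes also release interleukin 1 cytokines and proteases of the matrix, and they make interferon-induced proteins.

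Poly(A) RNA was counted per gene at 32222203 to 37846027 counts per library. All levels are given in CPM, the count over the scaled library size brought to a common total, and a fold is the level in FTO over that in mut-FTO on the edgeR scale unless said otherwise. The 3 FTO libraries were more alike than the 3 mut-FTO libraries: the log2 CPM of the median gene had an SD of 0.14 in FTO and 0.23 in mut-FTO. In a principal component analysis of 500 variable genes, the leading component held 41.2% of the variance and parted the groups, and the next held 19.1% and spread the mut-FTO libraries. The mut-FTO replicate 2 library stood farthest out, with 7.45% of its counts on mitochondrially encoded genes and 3.17% on assembled loci without a gene name, against 3.81% to 5.77% and 0.689% to 0.875% in the other libraries.

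RNA of FTO itself stood at 68.7, 76.1 and 61.9 CPM in FTO and at 49.1, 81.6 and 63.4 CPM in mut-FTO, so that the groups overlapped. In gene-level counts the endogenous and the introduced transcript cannot be told apart. The log2 fold change of FTO was 0.09 (SE 0.16, edgeR adjusted p = 0.772). The level of the introduced gene therefore did not tell the groups apart, and the match of the table's columns to FTO and mut-FTO rests on their letters alone. If these were exchanged, every direction given here would turn round.

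At an adjusted p below 0.05, 568 genes (4.24% of 13381 tested) were higher in FTO and 650 (4.86%) were lower, 1218 (9.1%) in all by the edgeR quasi-likelihood test. The median fold was 1.64 among the higher genes and 1.71 among the lower ones, and 171 higher and 207 lower genes had a log2 fold change of at least 1 in size. The libraries of the groups did not overlap for 1209 of the 1218 called genes, and for 29.3% of all tested genes. An unadjusted p below 0.05 was reached by 3300 genes. The counts depended on single libraries. They were 253 higher and 297 lower genes without FTO replicate 1, 252 and 324 without FTO replicate 2, 250 and 293 without FTO replicate 3, and 326 and 343 without mut-FTO replicate 3. Leaving out mut-FTO replicate 1 gave 1534 and 1412 genes, and leaving out mut-FTO replicate 2 gave 549 and 594. In each of these 6 fits, 189 of the higher and 221 of the lower genes kept their call.

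**Figure D1:**
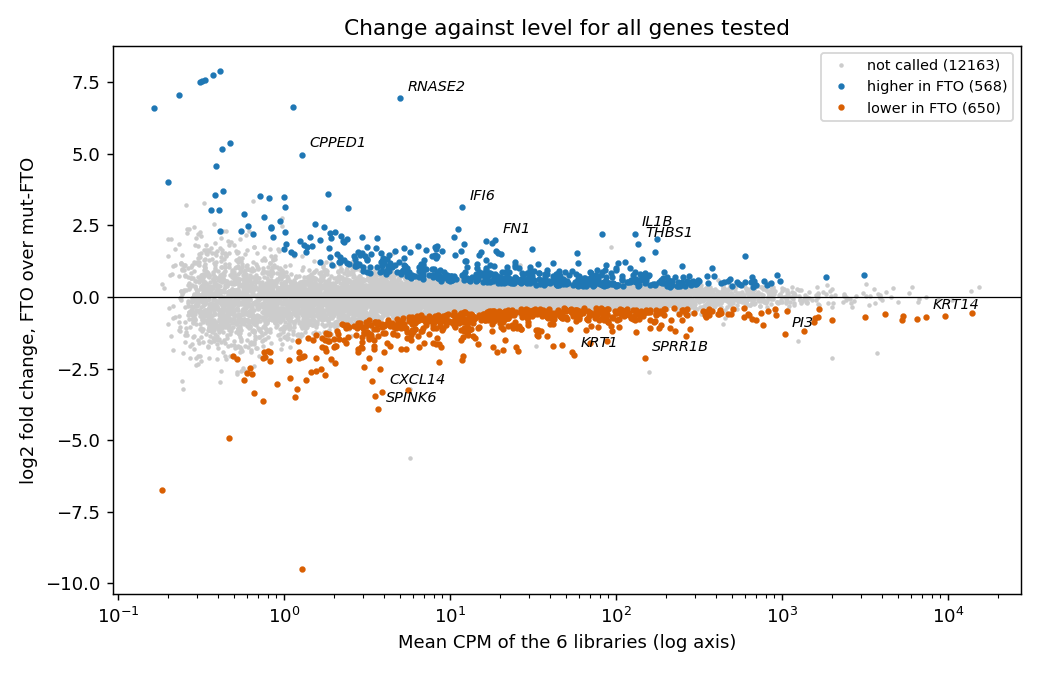
Each point is one of the 13381 genes tested, with the mean CPM of the 6 libraries on a log axis against the log2 fold change of FTO over mut-FTO. The 568 higher and 650 lower genes are coloured, and the points beyond about 7 in size on the vertical axis are genes with few counts or none in one group, whose fitted fold depends on the prior count.

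**Figure D2:**
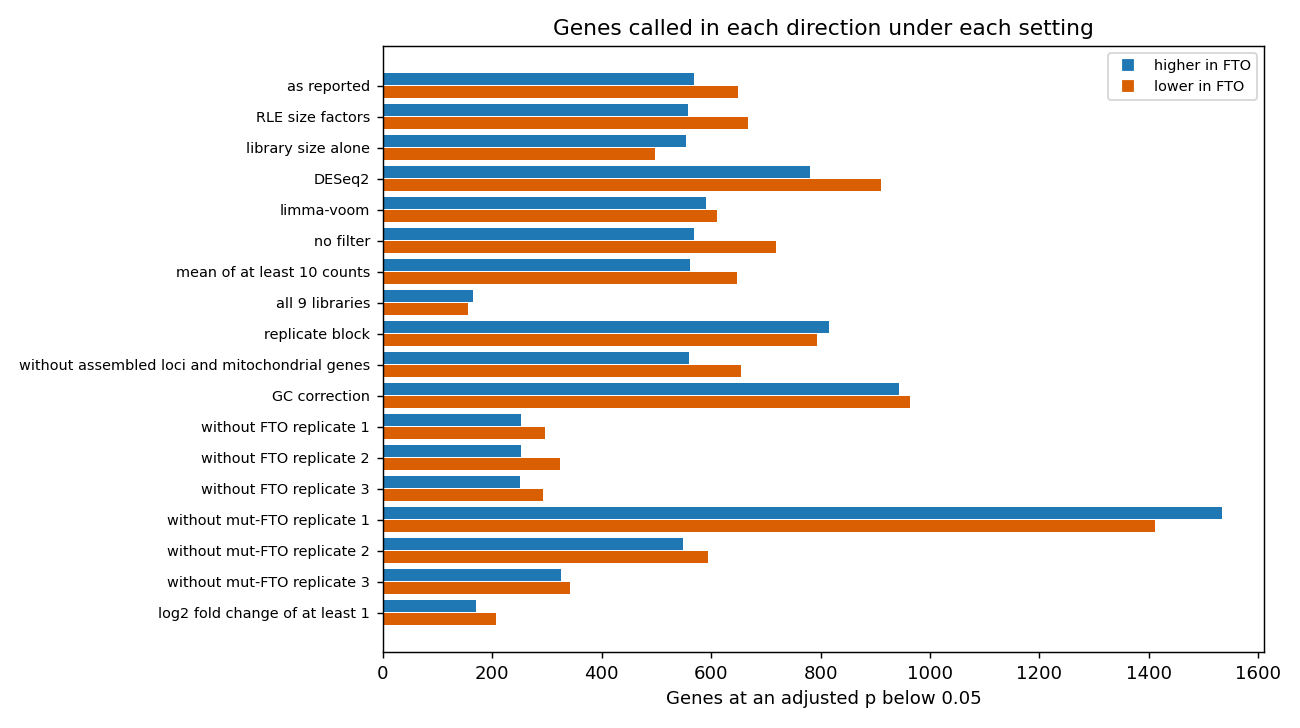
Bars from 0 give the number of genes at an adjusted p below 0.05 in each direction under each way of processing the 6 libraries (9 libraries in the bar so named). The number ran from 164 higher and 155 lower genes when all 9 libraries shared one estimate of the spread to 1534 and 1412 without mut-FTO replicate 1.

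Genes lower in FTO were richer in G and C. The longest annotated transcript (GENCODE v29) had a median GC content of 55.4% for the lower genes, 47.0% for the higher genes and 48.6% over all tested genes. The letters GGAC, mostly G and C themselves, occurred 4.62 times per kb in the lower genes, 3.37 in the higher and 3.61 in all. The median transcript lengths were 3736, 3449 and 3636 nt. The part of these letters in the changes was not tested, nor whether their number differed apart from GC content. GC content also moved with the libraries. Genes of at least 55% GC less those of at most 45% GC differed in their median log2 deviation by −0.02, −0.09 and −0.25 in the FTO libraries and by −0.23, 0.38 and 0.18 in the mut-FTO libraries. With the trend on GC content removed from each library, 944 genes were higher and 963 lower. Their median GC contents were 50.9% and 51.6%, and among them were 553 of the 568 and 630 of the 650. The trend was removed without regard to group, so any group difference that follows GC content was removed with it. The medians after correction are therefore no separate result.

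The largest changes were in genes with low levels in these libraries. RNASE2, which encodes a secreted ribonuclease of eosinophil granules, was at 9.31, 9.27 and 11.4 CPM in FTO and at 0.214, 0 and 0 CPM in mut-FTO. All 8 reads of RNASE2 in mut-FTO came from replicate 1, against 1108 reads in FTO (log2 fold change 6.95, SE 0.54, edgeR adjusted p = 3.6e-06). CPPED1, a phosphatase, was at 2.49, 2.73 and 2.32 CPM in FTO and at 0.160, 0 and 0.0571 CPM in mut-FTO (4.97, SE 0.60, adjusted p = 9.89e-05). Neither gene's libraries overlapped between the groups. SPINK6, an inhibitor of the kallikrein proteases that loosen the skin surface, went the other way, with 0.446, 0.530 and 0.396 CPM in FTO and 7.61, 6.87 and 6.45 CPM in mut-FTO. Its log2 fold change was −3.92 (SE 0.27, adjusted p = 8.15e-07). FN1, which encodes the matrix glycoprotein fibronectin, was at 24.8, 38.6 and 26.5 CPM in FTO and at 6.92, 8.81 and 7.16 CPM in mut-FTO, a 3.94-fold difference (log2 1.98, SE 0.19, adjusted p = 8.33e-06). All 4 genes kept their call with any library left out.

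Complement factor I (CFI) was 11.1-fold higher in FTO, at 1.86, 1.83 and 1.87 CPM against 0.240, 0.0670 and 0.171 CPM. SLFN11, a restriction factor that blocks replication in damaged cells, was 8.59-fold higher at 3.28, 4.74 and 5.03 CPM against 0.454, 0.302 and 0.742 CPM. The nuclear receptor RORA was 5.87-fold higher. Among genes lower in FTO, the growth factor binding protein IGFBP2 was 11.01-fold lower, at 0.603, 0.583 and 0.565 CPM against 7.40, 5.93 and 6.05 CPM. TMEM37, a membrane protein related to calcium channel subunits, was 9.51-fold lower at 0.997, 1.22 and 0.989 CPM against 9.88, 9.55 and 11.1 CPM. The retinoid transporter ABCA4 was 7.69-fold lower, the sterol transporter ABCG1 7.52-fold and the tetraspanin TSPAN7 12.5-fold. These 8 genes kept their call with any library left out.

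Other genes among the 12 largest changes of a direction rested on fewer libraries. FOLR3, a secreted folate receptor, was 10.8-fold higher, a call that was lost (edgeR adjusted p = 0.0568) without FTO replicate 2. The collagen-crosslinking peroxidase PXDN was 12.1-fold higher and lost it without FTO replicate 2 (0.0505) or mut-FTO replicate 3 (0.0628), without a filter on low counts (0.0520) and by DESeq2 (0.05655). SIMC1 was 6.24-fold higher and lost it without FTO replicate 1 (0.0627). FCRLA (7.46-fold) and the heparan sulfate sulfotransferase HS3ST3A1 (6.996-fold) lost it without mut-FTO replicate 3 or any single FTO library (0.0556 to 0.156). On the lower side DLX6, a homeobox factor, was 10.1-fold lower and lost its call without FTO replicate 2 (0.0683), and FAM3D was 8.15-fold lower and lost it without mut-FTO replicate 3 (0.116). KRT3, a keratin of the cornea, was at 0.401, 4.19 and 1.88 CPM in mut-FTO and 0.113 to 0.318 CPM in FTO, and lost its call without FTO replicate 1 or 3 or mut-FTO replicate 2 (0.0518 to 0.0708) and by limma-voom (0.154). HES5, a target of Notch signalling, was 7.47-fold lower and lost it without FTO replicate 1 or 3 or mut-FTO replicate 3 (0.0845 to 0.103).

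Among genes with a log2 fold change of at least 1 in size, TMSB4X, PHLDA1, PTGS2, SERPINB2, THBS1 and IL1B had the highest CPM of the higher ones, and TNFAIP2, PI3, MMP13, LYNX1, MT-ND3 and EEF1A2 of the lower ones. The actin-binding peptide gene TMSB4X was at 807, 809 and 1014 CPM in FTO and at 411, 223 and 355 CPM in mut-FTO (2.66-fold, edgeR adjusted p = 0.00051). LYNX1, a membrane-anchored toxin-like protein, was at 144, 145 and 152 CPM against 303, 514 and 319.9 CPM (2.58-fold lower). The translation factor EEF1A2 was at 141, 135 and 128 CPM against 254, 312 and 304 CPM (2.15-fold lower). MT-ND3 was 2.26-fold lower and lost its call without mut-FTO replicate 1 (edgeR adjusted p = 0.101) and after correction for GC content (0.0797).

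**Figure D3:**
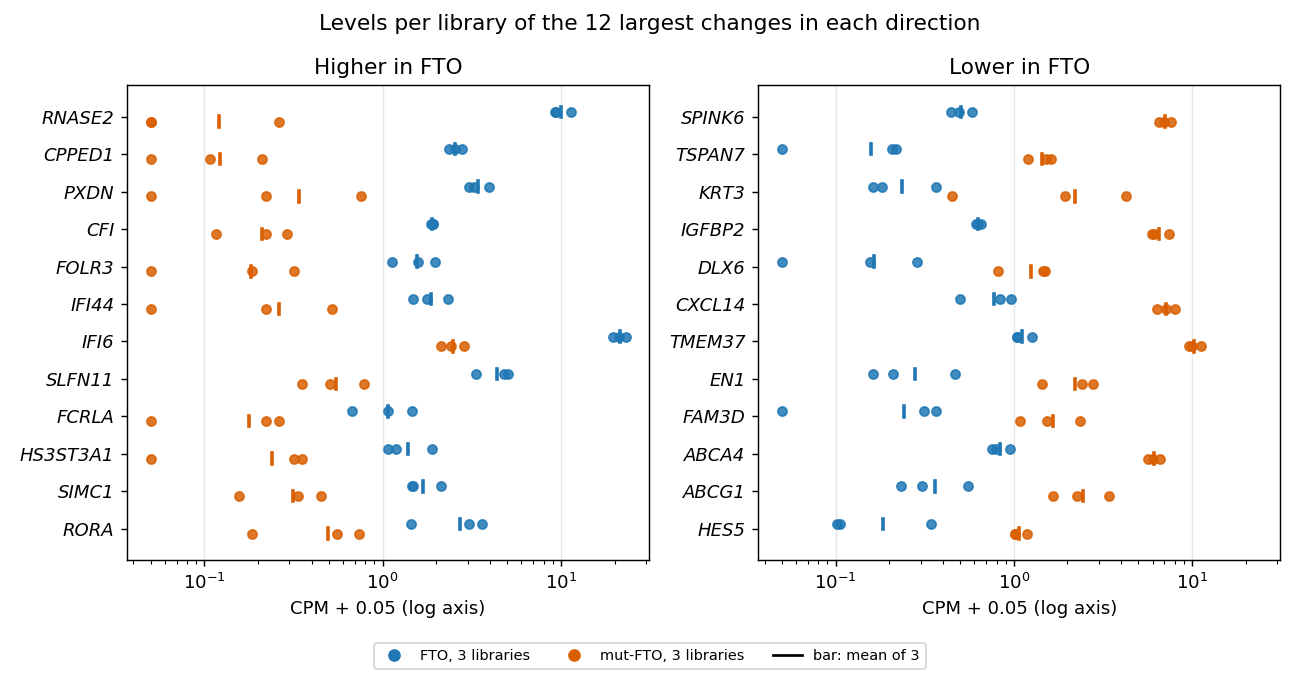
Points are single libraries of the 12 genes with the largest change in each direction, in CPM plus 0.05 on a log axis, and bars are means of 3 libraries. These 24 genes were chosen among called genes whose groups do not overlap. RNASE2 lies between 9.27 and 11.4 CPM in FTO and at or below 0.214 CPM in mut-FTO.

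Inflammatory cytokines and chemokines, the secreted signals of stimulated keratinocytes, were mostly higher in FTO where they changed. Of 36 members tested, 7 were higher, 2 lower and 27 did not pass, with a median log2 fold change of 0.22 against 0.0045 over all tested genes. The interleukin 1 pair moved together. IL1B, the secreted form made by inflammasome cleavage, was at 195, 207 and 239 CPM in FTO and at 43.9, 51.5 and 43.5 CPM in mut-FTO. Every FTO library thus lay far above every mut-FTO library, and the fold was 4.62 (log2 2.21, SE 0.13, edgeR adjusted p = 1.54e-07). IL1A, the alarmin form that keratinocytes hold preformed, was at 118, 133 and 153 CPM against 38.3, 26.8 and 24.1 CPM (4.53-fold, adjusted p = 1.56e-06). IL24, an IL-10 family cytokine, was at 16.8, 18.3 and 21.3 CPM against 3.95, 2.72 and 4.28 CPM (5.13-fold, adjusted p = 2.66e-06).

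The chemokine CXCL14, which healthy epidermis makes constantly, had the opposite direction, at 0.918, 0.450 and 0.791 CPM in FTO and 6.33, 7.94 and 7.13 CPM in mut-FTO (9.87-fold lower, edgeR adjusted p = 4.5e-06). The IL-10 family was divided: IL19 was 1.82-fold higher in FTO and IL20 1.78-fold lower. LIF, a cytokine of the IL-6 family, was 2.07-fold higher, and CXCL9, a chemokine for T cells, 2.95-fold higher. CCL2, which draws monocytes, was 1.51-fold higher and kept its call in 4 of the 6 fits that leave out 1 library, while the other 8 called members kept it in all. With all 9 libraries in the fit, 5 cytokine genes were called higher and 1 lower.

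Of 34 cytokine and pattern receptor genes tested, 2 were higher and 3 lower, and their median was −0.01. The called share was 14.7%, against 9.1% of all tested genes. With 1 library left out, 0 to 5 were higher and 2 to 7 lower. IL17RE, the receptor chain for IL-17C, was 3.43-fold lower in FTO, at 1.60, 0.874 and 1.53 CPM against 4.19, 5.87 and 3.71 CPM. The decoy receptor IL13RA2 was 2.34-fold higher, a call that was lost (edgeR adjusted p = 0.0549) without FTO replicate 3. Of 20 genes of NF-kB subunits and feedback, 2 were lower (10%, against 9.1% called among all tested genes). None was higher by edgeR, DESeq2 or limma-voom or at an unadjusted edgeR p below 0.05. Without mut-FTO replicate 1, 1 was higher and 4 were lower. The lower genes were TNFAIP2, at 878, 869 and 760 CPM against 1626, 2015 and 2035 CPM, and the inhibitor NFKBIA, at 460, 470 and 422 CPM against 638, 829 and 751 CPM. PTGS2, which encodes the inducible cyclooxygenase, was at 239, 269 and 258 CPM in FTO and at 97.7, 71.4 and 92.1 CPM in mut-FTO (2.93-fold, adjusted p = 2.66e-06).

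Interferon-induced genes changed in a single direction in this fit. Of 47 tested, 15 were higher in FTO, 32 did not pass and none was lower at the adjusted threshold. By DESeq2 1 member was lower, as was 1 without mut-FTO replicate 1, by limma-voom none, and 3 were at an unadjusted edgeR p below 0.05 and also after correction for GC content. Over the list the median was 0.18 on the log2 scale. IFI6, an interferon-induced membrane protein, was at 21.2, 19.7 and 23.0 CPM in FTO and at 2.08, 2.38 and 2.82 CPM in mut-FTO (8.76-fold, SE of the log2 change 0.18, edgeR adjusted p = 1.54e-07). OASL, a sensor-related antiviral protein, was at 49.0, 46.9 and 46.4 CPM against 13.4, 15.6 and 15.5 CPM (3.20-fold). IFIT2 and IFIT3, which bind foreign RNA or its partners, were 3.71-fold and 2.25-fold higher. IFIT2 was at 27.4, 28.2 and 28.8 CPM against 9.03, 6.50 and 7.16 CPM, and IFIT3 at 61.0, 59.0 and 53.7 CPM against 27.5, 25.7 and 24.0 CPM. In each of these genes the FTO libraries lay within a narrow band above all mut-FTO libraries.

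RSAD2 (viperin), which blocks viral replication, was 3.74-fold higher, IFIT1 2.89-fold, the helicase-related DDX60 2.43-fold and the GTPase GBP1 2.18-fold. These and the 4 members above kept their call with any library left out. The ubiquitin-like ISG15 was 1.67-fold higher and TRIM22 1.81-fold, each in 5 of the 6 fits. IFI44 was 8.78-fold higher, at 1.73, 1.43 and 2.29 CPM against 0, 0.469 and 0.171 CPM, and the call was lost with edgeR when any of 3 libraries was left out: FTO replicate 1 (adjusted p = 0.055), FTO replicate 3 (0.101) or mut-FTO replicate 3 (0.0748). The number of members called higher was 8 without FTO replicate 3, 10 to 18 without another library, and 9 with all 9 libraries in the fit. MHC class I genes, many of which interferon also induces, had 3 higher members of 17, and 1 without FTO replicate 1. Their called share was 17.65%, against 9.1% of all tested genes. By DESeq2, after correction for GC content and without mut-FTO replicate 1, 1 member was lower. B2M, the light chain of MHC class I, was at 2205, 2105 and 2514 CPM in FTO and at 1527, 1405 and 1330 CPM in mut-FTO (1.60-fold, adjusted p = 0.00214). In the MHC class II list 1 of 10 members passed (10%, against 9.1% of all tested genes), the regulator CIITA, which was 2.06-fold lower.

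Promoters of 3 interferon-induced genes that were higher in FTO are printed 5′ to 3′ from RefSeq on GRCh38.p14, each from 250 bases before to 50 bases after the gene start, to show the sequence by which interferon-induced genes are known to be switched on. Capitals mark the interferon-stimulated response element (ISRE), searched as TTTC, any 2 bases and TTTC on both strands, so that a match on the other strand appears as its reverse complement. IFI6 lies at chr1:27672143-27672442 on the minus strand, IFIT3 at chr10:89327747-89328046 on the plus strand and IFI44 at chr1:78649539-78649838 on the plus strand.
IFI6: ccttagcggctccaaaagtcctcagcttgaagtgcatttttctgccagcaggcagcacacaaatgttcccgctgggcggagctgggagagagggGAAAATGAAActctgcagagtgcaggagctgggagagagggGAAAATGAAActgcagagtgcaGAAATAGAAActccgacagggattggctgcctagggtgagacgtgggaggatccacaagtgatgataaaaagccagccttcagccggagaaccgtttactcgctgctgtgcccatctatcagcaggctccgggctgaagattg
IFIT3: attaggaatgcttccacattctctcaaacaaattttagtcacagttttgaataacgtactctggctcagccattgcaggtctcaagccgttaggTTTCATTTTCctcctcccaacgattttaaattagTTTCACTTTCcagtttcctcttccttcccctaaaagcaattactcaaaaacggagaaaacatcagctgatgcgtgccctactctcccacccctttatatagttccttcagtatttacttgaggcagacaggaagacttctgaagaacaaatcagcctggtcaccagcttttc
IFI44: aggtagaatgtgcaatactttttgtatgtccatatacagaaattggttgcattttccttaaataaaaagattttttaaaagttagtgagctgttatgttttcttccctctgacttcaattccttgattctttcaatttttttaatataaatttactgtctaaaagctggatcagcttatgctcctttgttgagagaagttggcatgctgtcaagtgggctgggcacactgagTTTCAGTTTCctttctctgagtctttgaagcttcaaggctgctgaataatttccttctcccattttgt
The IFI6 window held 3 matches, which begin 156, 115 and 93 bases before the gene start. The IFIT3 window held 2, at 156 and 122 bases before it, and the IFI44 window 1, at 18 bases before it. A match stood in 9 of the 11 called interferon-list members with a RefSeq window (81.8%) and in 13 of the 26 members that did not pass (50%). Over all 27305 RefSeq promoters of this length the share was 3.65%, and over the 10309 tested genes with a window it was 2.83%. Among all higher genes it was 3.70% and among all lower genes 3.84%. These are matches of letters, not measured sites.

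Keratinocyte differentiation genes were lower in FTO than in mut-FTO, the largest one-sided group among the lists. Of 40 tested, 21 were lower, 19 did not pass and none was higher at the adjusted threshold of edgeR, DESeq2 or limma-voom, and the median log2 fold change was −0.97. At an unadjusted edgeR p below 0.05, 1 member was higher, as was 1 after correction for GC content and 1 without mut-FTO replicate 1. KRT1, the first keratin of the suprabasal layers, was at 21.0, 20.6 and 24.8 CPM in FTO and at 86.1, 87.7 and 93.6 CPM in mut-FTO (4.03-fold lower, log2 −2.01, SE 0.12, edgeR adjusted p = 2.99e-07). SPRR1B, a small proline-rich protein of the cornified envelope, was at 49.7, 55.9 and 61.9 CPM against 198.5, 329 and 206 CPM (4.38-fold lower, adjusted p = 4.5e-06). The highest value of SPRR1B was that of mut-FTO replicate 2. SPRR2E and SPRR2A were 3.80-fold and 3.29-fold lower, SPRR2A at 17.3, 20.5 and 20.8 CPM against 63.5, 65.9 and 63.4 CPM.

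Other called members encode envelope proteins, a crosslinking enzyme and keratins. SPRR1A was 3.76-fold lower, SPRR2F 3.15-fold and SPRR2D 2.86-fold. TGM1, the transglutaminase that joins envelope proteins, was 1.99-fold lower at mean levels of 125 and 249 CPM, and the envelope scaffold periplakin (PPL) was 1.57-fold lower. The keratins of stratified mucosa KRT4 and KRT13 were 2.05-fold and 1.70-fold lower, and the protease CASP14, which acts in the outermost layers, was 2.17-fold lower. These members kept their call with any library left out. IVL, which encodes involucrin, was 2.37-fold lower in 1 of the 6 such fits and LCE3D 3.75-fold lower in 3. Between 14 and 23 members were lower with 1 library left out, and 11 with all 9 libraries in the fit. In RNA from whole cultures, fewer cells of a type and less RNA per cell cannot be told apart. SPRR2 genes, keratins, IFIT genes, HLA genes and RNASE2 have similar copies, and the labels do not say how reads shared between copies were assigned.

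The promoters of IL1A and SPRR1B, which differed in opposite directions, are printed in the same way because both windows hold matches to the AP-1 element, searched as TGANTCA on both strands and set in capitals. AP-1 is the dimer of FOS and JUN proteins through which growth factor signals reach many keratinocyte genes. IL1A lies at chr2:112784444-112784743 on the minus strand and SPRR1B at chr1:153030953-153031252 on the plus strand.
IL1A: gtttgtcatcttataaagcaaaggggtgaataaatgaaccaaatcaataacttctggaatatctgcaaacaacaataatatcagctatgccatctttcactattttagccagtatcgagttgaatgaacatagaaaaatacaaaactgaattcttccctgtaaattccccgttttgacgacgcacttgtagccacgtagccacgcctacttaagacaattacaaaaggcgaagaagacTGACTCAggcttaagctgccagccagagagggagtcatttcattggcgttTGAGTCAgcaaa
SPRR1B: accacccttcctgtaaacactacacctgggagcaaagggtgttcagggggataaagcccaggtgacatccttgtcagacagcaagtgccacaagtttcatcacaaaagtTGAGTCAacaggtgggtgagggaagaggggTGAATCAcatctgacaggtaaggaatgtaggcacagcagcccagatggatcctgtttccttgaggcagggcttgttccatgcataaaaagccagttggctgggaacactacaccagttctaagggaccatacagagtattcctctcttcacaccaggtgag
In IL1A the matches stood 12 bases before and 38 bases after the gene start, and in SPRR1B 141 and 111 bases before it. The element was found in 7 of 13 lower differentiation genes with a window (53.8%), in 5 of 14 that did not pass (35.7%), in 3 of 7 called cytokine genes (42.9%) and in 5 of 20 cytokine genes that did not pass (25%). In the EGFR, ERK and AP-1 list it was found in none of 9 called members with a window and in 2 of 19 that did not pass (10.5%). Its share was 7.16% in all higher genes, 7.68% in all lower genes, 4.78% in the tested genes and 7.76% over all RefSeq promoters.

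Keratins and laminins of the basal layer were divided, with 5 of 19 higher, 4 lower and a median of 0.03, and 3 higher without FTO replicate 1. KRT14 and KRT15, basal keratins, were lower in FTO. KRT14 was at 5805, 5208 and 5911 CPM against 8208, 10250 and 8834 CPM (1.61-fold lower, edgeR adjusted p = 0.00274), and KRT15 was 1.85-fold lower. LAMA3, a chain of the laminin that anchors basal cells, was 1.497-fold higher. The simple-epithelium keratin KRT18 was 1.48-fold higher and kept its call with any library left out.

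Genes of stressed and psoriatic skin did not move one way. Of 45 tested, 5 were higher and 7 lower, with a median of −0.07, and without mut-FTO replicate 1 the counts were 9 and 10. Without FTO replicate 2 or 3, 4 were lower. PI3, which encodes the protease inhibitor elafin, was at 516, 582 and 712 CPM in FTO and at 1333, 1951 and 1146 CPM in mut-FTO (2.45-fold lower, edgeR adjusted p = 0.000502). The stress keratin KRT16 was at 89.4, 59.3 and 86.7 CPM against 174, 191 and 189.8 CPM (2.36-fold lower). The psoriasin relative S100A7A was 1.67-fold lower and the reductase AKR1B10 3.11-fold lower. The higher members, IL19, FOSL1, TGFA, HBEGF and OAS2, stand also in the cytokine, growth factor or interferon lists. Of 25 antimicrobial and S100 genes, 5 were lower and RNASE2 alone was higher, with 3 lower without FTO replicate 1 and 3 higher without mut-FTO replicate 1 or 2. The peptidoglycan-binding PGLYRP4 was at 19.4, 22.5 and 21.3 CPM against 42.7, 52.3 and 45.7 CPM (2.23-fold lower).

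In the list of kallikreins, SPINK inhibitors and TMPRSS proteases, which act at the skin surface, 5 of 23 genes were lower. None was higher by edgeR, DESeq2 or limma-voom or at an unadjusted edgeR p below 0.05. KLK10 was at 213, 214 and 204 CPM in FTO and at 300.3, 343 and 304 CPM in mut-FTO (1.501-fold lower, edgeR adjusted p = 0.00284). The membrane serine proteases TMPRSS13 and TMPRSS11E were 3.07-fold and 2.13-fold lower. Serpins, which trap serine proteases, had 5 higher of 18, and 8 without mut-FTO replicate 1. None was lower by these tools or at an unadjusted edgeR p below 0.05. SERPINB2, the intracellular inhibitor of plasminogen activators, was at 185, 203 and 232 CPM against 85.9, 74.7 and 87.2 CPM (2.50-fold higher, adjusted p = 7.23e-06). SERPINE2 and SERPINA1 were 1.68-fold and 2.96-fold higher.

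Growth factor signalling genes had the highest median of the lists with at least 10 tested members. In the list of EGFR, ERK and AP-1, the relay from epidermal growth factor receptors to the nucleus, 15 of 37 were higher and 2 lower, and the median log2 fold change was 0.39. Among ligands, TGFA was 1.60-fold and HBEGF 1.57-fold higher in FTO. The receptors EGFR and ERBB3 were 1.33-fold and 1.57-fold lower, calls that were lost without mut-FTO replicate 3 or any single FTO library. Among the 15 higher members were phosphatases that ERK signalling induces and that act back on it. DUSP6, a phosphatase of ERK, was at 246, 268 and 248 CPM in FTO and at 144.5, 134 and 137 CPM in mut-FTO (1.83-fold, edgeR adjusted p = 9.72e-05). DUSP5, the nuclear ERK phosphatase, was at 12.2, 13.4 and 13.6 CPM against 3.21, 3.96 and 4.28 CPM (3.42-fold).

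PHLDA1 was at 341, 339 and 347 CPM against 154, 174 and 155 CPM (2.13-fold, edgeR adjusted p = 1.27e-05), with FTO libraries that hardly differed among themselves. Transcription factors downstream of ERK were higher too: ETV5 4.18-fold, ETV4 1.99-fold, the AP-1 protein FOSL1 1.78-fold and ATF3 2.79-fold. ATF3 was at 13.5, 19.6 and 14.2 CPM against 7.05, 5.195 and 4.71 CPM. The members of this list given as higher kept their call with any library left out. Between 11 and 17 members were higher with 1 library left out, and 8 with all 9 libraries in the fit.

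Matrix genes had members on both sides. Of 51 extracellular matrix genes, 7 were higher and 4 lower, with a median of −0.11, and 1 was lower without mut-FTO replicate 3 or any single FTO library. Beside FN1, THBS1 was higher, a secreted glycoprotein that activates TGF-beta, at 204, 246 and 190.1 CPM against 71.3, 52.3 and 54.9 CPM (3.58-fold, edgeR adjusted p = 1.56e-06). CYR61, a matricellular protein, was 1.89-fold higher, at 52.8, 65.3 and 60.5 CPM against 25.3, 37.7 and 31.6 CPM. The laminin chain LAMB2 was 1.499-fold lower. Enzymes that cut or crosslink the matrix had 9 higher and 4 lower of 35, 5 higher without FTO replicate 2, and 1 or 2 lower without mut-FTO replicate 3 or any single FTO library. The collagenase MMP13 was at 176, 162 and 196.5 CPM in FTO and at 412, 390.5 and 349 CPM in mut-FTO (2.15-fold lower, adjusted p = 3.01e-05). MMP7 and MMP12 moved the other way, 1.90-fold and 4.17-fold higher, as did the membrane protease ADAM19 (2.70-fold). Inhibitors of these enzymes were higher as well, TIMP1 1.82-fold and TIMP3 1.74-fold.

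Of 31 integrin and focal adhesion genes, 6 were higher and 2 lower. The integrin chains ITGB3, ITGA2 and ITGB1 were 2.84-fold, 1.55-fold and 1.61-fold higher. ITGA2 was at 153, 171 and 160.4 CPM against 115, 94.0 and 103 CPM, and ITGB1 at 296, 307 and 338 CPM against 232, 185 and 167 CPM. The adhesion adaptor TNS1 was 7.04-fold lower at 0.394, 0.212 and 0.198 CPM against 2.32, 2.25 and 1.17 CPM. Without FTO replicate 3, 3 members of this list were higher, and without mut-FTO replicate 1, 10 were. Among 32 genes of TGF-beta signalling and epithelial-mesenchymal transition, 4 were higher and 3 lower, and 7 and 6 without mut-FTO replicate 1. The smooth-muscle actin binder TAGLN was 2.84-fold higher at 32.3, 28.3 and 30.0 CPM against 13.03, 11.2 and 7.59 CPM. INHBA, which encodes the activin A subunit, was 2.15-fold higher, and ID3, an inhibitor of helix-loop-helix factors, was 1.83-fold lower. Cell junction genes had 7 lower and 1 higher of 35. The adherens junction protein NECTIN4 was at 28.1, 29.6 and 28.3 CPM against 50.5, 53.3 and 60.2 CPM (1.91-fold lower), and the tight junction adaptor TJP3 was 2.13-fold lower. The lower count of this list fell to 3 without FTO replicate 1 or mut-FTO replicate 3, 4 without FTO replicate 2 and 2 without FTO replicate 3.

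The list of HOX and epidermal fate factors, transcription factors that set position and layer in the skin, had 12 lower and 5 higher of 42, with a median of −0.28. SOX2, a factor of progenitor cells, was at 0.971, 1.06 and 1.39 CPM in FTO and at 6.22, 7.64 and 5.62 CPM in mut-FTO (5.70-fold lower). EN1, a homeobox factor of ventral skin and sweat glands, was 9.19-fold lower at 0.420, 0.159 and 0.113 CPM against 2.35, 2.75 and 1.40 CPM. HOXC13, a factor of hair and nail, was 1.57-fold lower, HOXC6 2.25-fold, PITX1 1.70-fold and KLF5 1.54-fold. ETS1, which holds keratinocytes in an undifferentiated state, was higher at 163, 179.7 and 168 CPM against 108, 81.5 and 86.9 CPM (1.85-fold), and SOX9, a stem cell factor, was 1.77-fold higher. The named factors kept their call with any library left out. The counts of this list fell to 7 lower and 3 higher without FTO replicate 1 or 2, to 7 lower and 4 higher without mut-FTO replicate 3, and to 8 lower and 3 higher without FTO replicate 3.

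Wnt, FGF and IGF genes, whose proteins pattern the skin and its appendages, had 8 lower and 3 higher of 39. WNT10A, the ligand whose loss thins hair and teeth, was at 76.3, 64.9 and 63.9 CPM in FTO and at 129, 139.7 and 152 CPM in mut-FTO (2.05-fold lower, edgeR adjusted p = 7.11e-05). WNT11 and WNT4 were 2.10-fold and 1.73-fold lower, and the receptor FGFR3 1.73-fold lower. SFRP1, a secreted Wnt inhibitor, was 5.44-fold higher at 3.70, 2.94 and 2.21 CPM against 0.374, 0.536 and 0.713 CPM. Without mut-FTO replicate 1, 8 members were higher, and 5 were lower without FTO replicate 2 or 3 or mut-FTO replicate 3.

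**Figure D4:**
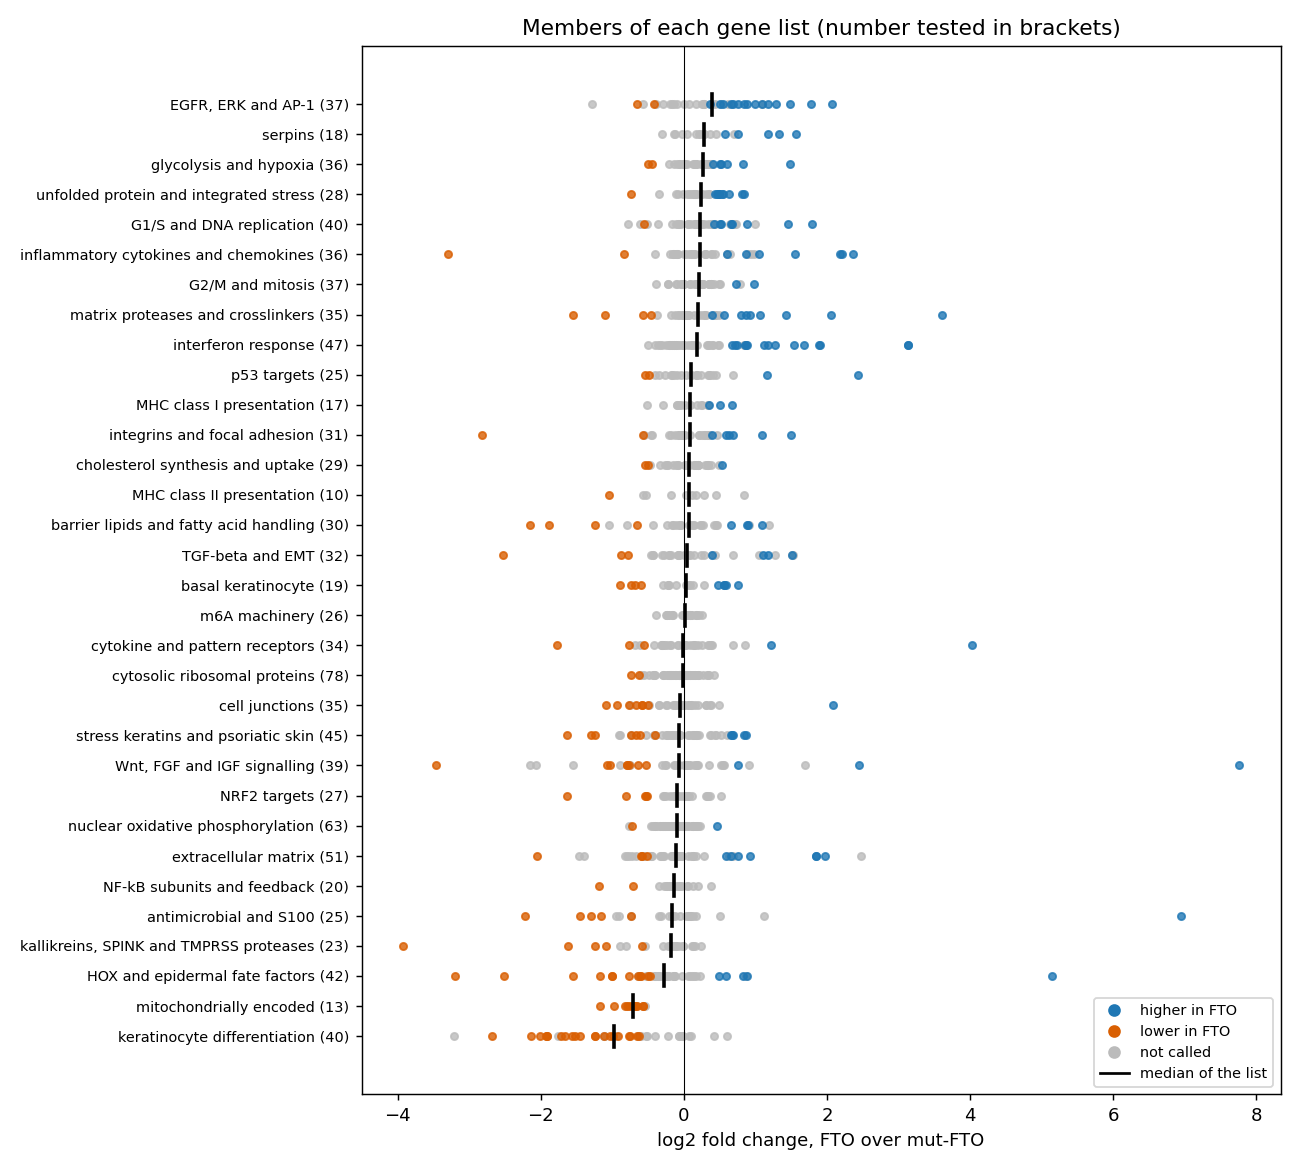
Points are the tested members of each gene list other than the cell type markers, with the log2 fold change of FTO over mut-FTO on the horizontal axis, coloured by call, and black bars are list medians. Of the lists drawn, differentiation genes have the lowest median at −0.97 and EGFR, ERK and AP-1 genes the highest at 0.39, while the m6A machinery holds no coloured point.

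Genes of the m6A machinery, the enzymes that place and remove the mark and the proteins that read it, held no called member. None of 26 passed by edgeR, DESeq2 or limma-voom, 1 was lower at an unadjusted edgeR p below 0.05, and their median log2 fold change was 0.02, within a range of −0.39 to 0.26. HNRNPC, a reader of the structure around m6A, was at 479.7, 461 and 520.3 CPM in FTO and at 471, 523 and 461 CPM in mut-FTO (0.01, SE 0.11, edgeR adjusted p = 0.979), so that its libraries overlapped. HNRNPA2B1, a nuclear reader, was at 339.7, 335 and 354 CPM against 439, 450.5 and 332 CPM (−0.25, SE 0.13, adjusted p = 0.241). Without mut-FTO replicate 1, 1 member was higher and 1 lower.

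In the list of the unfolded protein response and the integrated stress response 10 of 28 were higher and 1 lower, with a median of 0.24. TRIB3, a pseudokinase induced by amino acid and endoplasmic reticulum stress, was at 191, 186 and 159 CPM in FTO and at 106, 102 and 99.0 CPM in mut-FTO (1.75-fold, edgeR adjusted p = 0.000369). The chaperone HSPA5 was at 899.5, 948 and 930.2 CPM against 651, 603 and 659 CPM (1.45-fold). ATF5 was the lower member (1.67-fold). The higher count of this list fell to 4, 3 and 2 without FTO replicates 1, 2 and 3 and to 5 without mut-FTO replicate 3, and it was 0 with all 9 libraries in the fit. Of 27 NRF2 targets, which defend against oxidants, 5 were lower and none higher by edgeR or limma-voom. DESeq2 called 1 higher, and 5 were higher at an unadjusted edgeR p below 0.05. Without mut-FTO replicate 1, 4 were higher and 6 lower, and after correction for GC content 2 were higher and 6 lower. GPX2, a glutathione peroxidase, was at 186, 157 and 202 CPM against 295, 378.5 and 278 CPM (1.75-fold lower). The lower count fell to 2 or 3 without mut-FTO replicate 3 or any single FTO library.

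Glycolysis and hypoxia genes had 6 higher and 2 lower of 36 and a median of 0.26, and 3 higher without FTO replicate 1. Neither lower call was made without mut-FTO replicate 3 or any single FTO library. The glucose transporter SLC2A3 was at 20.3, 23.7 and 22.1 CPM in FTO and at 6.04, 8.21 and 9.50 CPM in mut-FTO (2.79-fold, edgeR adjusted p = 8.86e-05), and the secreted lipase inhibitor ANGPTL4 was 1.77-fold higher. Barrier lipid and fatty acid genes were divided, with 4 higher and 4 lower of 30, of which 2 were lower without mut-FTO replicate 3 or any single FTO library. Without mut-FTO replicate 1, 7 were higher. The lipid droplet protein PLIN2 was 2.14-fold higher and the fatty acid carrier FABP4 1.86-fold higher, at 58.3, 66.7 and 88.4 CPM against 42.1, 39.1 and 33.2 CPM. ALOX12B, a lipoxygenase needed for the skin's water barrier, was 4.43-fold lower at 1.08, 0.874 and 1.64 CPM against 4.35, 4.66 and 6.88 CPM. Genes of cholesterol synthesis and uptake had 1 higher and 2 lower of 29, and 5 and 6 without mut-FTO replicate 1. The share called in this list was 10.3%, against 9.1% of all tested genes.

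Of 40 genes of the G1/S transition and DNA replication, 8 were higher and 1 lower, with a median of 0.23. ORC6, a subunit of the origin recognition complex, was at 6.43, 5.19 and 7.41 CPM in FTO and at 1.90, 2.38 and 2.65 CPM in mut-FTO (2.75-fold, edgeR adjusted p = 0.0014), and the cyclin CCND2 was 1.85-fold higher. The higher count fell to 3 without any single FTO library and was 2 with all 9 libraries. Of 37 G2/M genes 2 were higher, CCNA2 and MAD2L1 (5.4%, against 9.1% called among all tested genes). Neither was called without mut-FTO replicate 3 or any single FTO library, while 10 members were higher without mut-FTO replicate 1. The list of p53 targets had 2 higher and 2 lower of 25, and 1 to 5 and 0 to 4 with 1 library left out. Its called share was 16%, against 9.1% of all tested genes, and no member passed with all 9 libraries in the fit. The death receptor FAS was 2.23-fold higher at 8.84, 9.72 and 10.1 CPM against 4.06, 3.62 and 5.16 CPM.

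Genes of the mitochondrial genome, all of them here for respiratory complexes or ATP synthase, were lower in FTO, 12 of 13 of them, with a median of −0.71. MT-ND4 was at 3793, 4250 and 3601 CPM in FTO and at 5604, 8746 and 5928 CPM in mut-FTO (1.74-fold lower, edgeR adjusted p = 0.00476), and MT-CYB at 2425, 2542 and 2278 CPM against 3424, 4829 and 3591 CPM (1.64-fold lower). The highest value of both was that of mut-FTO replicate 2. Without that library 12 members were still lower, at a median of −0.54. The count fell to 5 without FTO replicate 1 and 7 without FTO replicate 3, and no member passed with all 9 libraries in the fit. Nuclear genes of oxidative phosphorylation had 1 higher and 1 lower of 63, and cytosolic ribosomal protein genes 2 lower of 78, at medians of −0.09 and −0.01. These called shares of 3.2% and 2.6% were below the 9.1% of all tested genes. With 1 library left out, 0 to 4 of the nuclear genes and 0 to 5 of the ribosomal protein genes were lower.

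Markers of the labelled cell type were present in all 6 libraries. The summed level of 12 keratinocyte genes ran from 18050 to 18630 CPM in FTO and from 21620 to 27920 CPM in mut-FTO, and 4 of them (KRT14, KRT5, PKP1 and DSP) were lower in FTO, KRT14 in each of the fits that leave out 1 library and the others in 3 or 4 of 6. The part of this in the differentiation result was not tested. Of 19 leukocyte markers 9 had no count in any library, among them CD3D, CD4 and TYROBP, and the sum was 76.3 to 86.4 CPM in FTO and 52.2 to 88.5 CPM in mut-FTO. Of the 4 that could be tested, the actin bundler LCP1 was 3.85-fold higher, at 26.8, 27.7 and 24.1 CPM against 6.76, 7.17 and 6.50 CPM, and LSP1 3.51-fold higher. LSP1 lost its call without mut-FTO replicate 3 or any single FTO library. The 2 remaining tested markers did not pass and had log2 fold changes below 0, the lowest −0.74. Fibroblast markers summed to 9.63 to 12.6 CPM in FTO and 12.9 to 13.8 CPM in mut-FTO, with PDGFRB, THY1 and POSTN at 0. Melanocyte and endothelial markers summed to at most 2.72 CPM in any library, and 5 of 10 in each list were at 0.

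Levels in Vector were set beside those of the other groups on a common scaling of all 9 libraries, and the group means were placed without a test. Among the 568 genes higher in FTO than in mut-FTO, the Vector mean lay above both groups in 319 (56.2%), between them in 237 (41.7%) and below both in 12 (2.11%). Among the 650 lower genes it lay below both in 304 (46.8%), between them in 311 (47.8%) and above both in 35 (5.38%). Over all tested genes the shares above, between and below were 35.3%, 28.4% and 36.3%. The comparisons share libraries, so these shares are a description. For all 15 higher interferon genes the Vector mean was above both groups, and for the 21 lower differentiation genes it was below both in 17 and between in 4. It was above both for 10 of the 15 higher EGFR, ERK and AP-1 genes and for 6 of the 7 higher cytokine genes. Means alone are placed here. In the edgeR fit of all 9, FTO differed from Vector in IFI6 (adjusted p = 0.000784). It did not pass in OASL (0.79), IFIT2 (0.274), IFIT3 (0.42) or IFI44 (0.565). OASL was at 63.2, 58.8 and 38.1 CPM in Vector, on both sides of all FTO libraries. In other lists the Vector mean was placed otherwise. For the 12 lower mitochondrially encoded genes the Vector mean was above both groups in 10 and between them in 2. In Vector replicates 1 to 3, MT-ND4 was at 4186, 4077 and 18130 CPM and MT-ND2 at 1627, 1488 and 5994 CPM. Their Vector means thus rested on replicate 3, and Vector replicates 1 and 2 lay below every mut-FTO library. For the 10 higher genes of the unfolded protein and integrated stress responses the Vector mean was between the groups in 7, above both in 2 and below both in 1.

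On this scaling, with groups in the order Vector, FTO and mut-FTO, the mean level of KRT1 was 3.63 ± 0.87, 22.4 ± 2.34 and 90.3 ± 4.01 CPM (SD, n = 3 each). IL1B was at 409 ± 33.5, 216 ± 23 and 46.9 ± 4.58 CPM. FN1 was at 243 ± 31.3, 30.4 ± 7.58 and 7.73 ± 1.05 CPM, so that for these genes FTO lay between the others. Other genes differed from Vector in mut-FTO and did not pass the test in FTO. In the same order THBS1 was at 198 ± 19.5, 216 ± 29.5 and 60.2 ± 10.4 CPM. Its log2 fold change was 0.12 (SE 0.17, adjusted p = 0.812) for FTO against Vector and −1.72 (SE 0.18, adjusted p = 8.78e-05) for mut-FTO against Vector in the edgeR fit of all 9. SERPINB2 was at 204 ± 21, 209 and 83.6 CPM (adjusted p = 0.954 for FTO and 0.000295 for mut-FTO). RNASE2 and SPINK6 had no count in any Vector library. CPPED1 was at 1.49 ± 0.524, 2.54 and 0.0733 CPM (adjusted p = 0.534 and 0.00117).

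**Figure D5:**
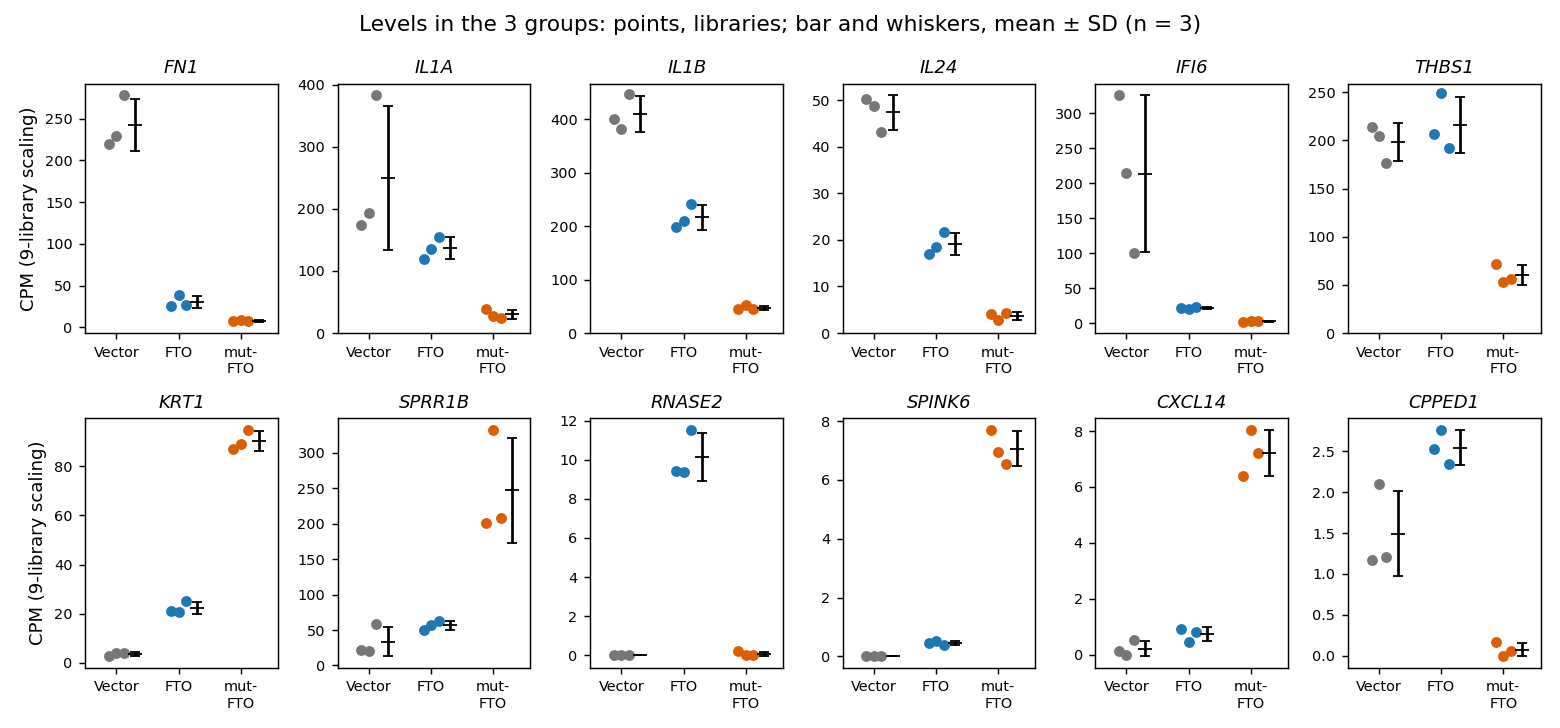
Points are the 9 libraries, with level in CPM on the common scaling on each vertical axis and groups on the horizontal axis, and bars with whiskers are mean ± SD of 3 libraries. The FTO mean lies between those of Vector and mut-FTO for FN1, IL1A, IL1B, IL24, IFI6, KRT1, SPRR1B, SPINK6 and CXCL14. FTO libraries overlap Vector for THBS1 and lie above the other groups for RNASE2 and CPPED1.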

How the data were processed

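Poly(A) RNA of HaCaT cells was sequenced in 9 libraries, and 6 of them (3 FTO, 3 mut-FTO) were compared. The authors deposited whole-number counts per gene, not normalized, and the submitters' processing notes list HISAT2 and StringTie. No label used here states the program that counted, whether it used strand, or its annotation. These notes name the mouse build mm10 although the symbols are human, so no coordinates were taken from the counts. The table has 21170 features, of which 16665 had a count in the 6 libraries and 1441 are assembled loci without a gene name. All columns were used.

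Counts were filtered with filterByExpr (minimum count 10, minimum total 15), which left 13381 genes. They were scaled by TMM factors of 0.9263 to 1.029 and tested with robust quasi-likelihood fits of edgeR 4.0.16 in R 4.3.3, with Benjamini-Hochberg adjustment over all genes tested. The script was first tested on simulated data. A standard error is the log2 fold change over the square root of F. For a gene absent from a group, that group was set at 3 counts over its 3 libraries, and such bounds cover counting error only. Every pair of libraries differed beyond sampling noise. Levels in Vector come from a separate scaling and fit of all 9 libraries.

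The comparison and the 37 gene lists (1176 symbols, 3 of them matched by another symbol) were chosen with earlier results of these data known. Named genes are FTO, FN1, RNASE2, CPPED1, SPINK6 and IL1B. Then come the 12 largest changes per direction among called genes with no overlap and a mean of 1 CPM or more where higher, and the 6 called genes of highest CPM per direction with a log2 fold change of at least 1. For each list up to 4 called members of lowest p follow, or, with none called, the 2 members of highest mean CPM. Other members were named after their values were seen. Unnamed, antisense and read-through entries were left out. Some genes that this rule names are not reported here.

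Alternatives were RLE size factors, library size alone, DESeq2 1.42.0, limma-voom (limma 3.58.1), no filter, a minimum mean of 10 counts, all 9 libraries in the fit, the replicate number as a block, no assembled loci or mitochondrial genes, a minimum log2 fold change of 1, and each library left out. The correction for GC content (a lowess trend per library) was chosen after seeing the data.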

Additional observations from a re-analysis of the deposited data

How the results depend on the processing

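The counts of 568 higher and 650 lower genes stayed within 1.5 times under RLE size factors (557 and 668), DESeq2 (781 and 911), limma-voom (591 and 610), no filter (568 and 719), a mean of at least 10 counts (562 and 647), library size alone (554 and 498), and without assembled loci and mitochondrial genes (559 and 654). Calls higher in FTO made up 46.6% of all calls. All 9 libraries in the fit gave 164 higher and 155 lower genes, and a log2 fold change of at least 1 gave 171 and 207. The GC correction gave 944 and 963. Leaving out 1 library gave 250 to 1534 higher and 293 to 1412 lower genes. The replicate number as a block gave 815 and 793. Same-numbered libraries did not deviate together (correlations of −0.08, 0.05 and −0.06). With 3 libraries in each group these values cannot decide whether a number pairs libraries, and no label says what it marks. FTO had a log2 fold change of −0.073 to 0.29 with 1 library left out, the lowest without mut-FTO replicate 1. HNRNPC, near 0 in the comparison as reported, turned to −0.0033 without a filter, −0.15 with the GC correction, and −0.058 to 0.058 with 1 library left out, where it was below 0 without FTO replicate 3 (−0.058), mut-FTO replicate 1 (−0.014) or mut-FTO replicate 3 (−0.028). The cause of these shifts was not tested. Of the called genes, 21 had a mean under 1 CPM in both groups, and no setting varied the depth.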

Other observations

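Some genes were called in the comparison although one group held no count of them. In mut-FTO these were FGF5, a growth factor that ends hair growth, with 84 counts in FTO (at least 26.4-fold higher by total counts), MFAP2, a microfibril protein of the matrix, with 92 (at least 28.9-fold), and the potassium channel KCNK3 with 75 (at least 23.6-fold). The lectin receptor CLEC10A had 69 counts in FTO (at least 21.7-fold), the growth suppressor NDN 52 (at least 16.4-fold) and the chemokine CCL3 37 (at least 11.6-fold). SH3GL2, an endocytic protein of neurons, was absent from FTO and had 38 counts in mut-FTO (at least 13.4-fold lower). The ETS factor FLI1 had 92 counts in FTO and 2 in mut-FTO, a ratio of 43.4 with a counting interval of 11.7 to 364, and the muscle filamin FLNC had 3 counts in FTO and 93 in mut-FTO. These genes were chosen after their values were seen.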
